A study of Mus musculus with 17 samples.

Results

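Lipid droplets are the stores in which hepatocytes keep triglyceride, and the 10 genes described here make their coat, control their fusion and budding, release their fat or bring fatty acid into the cell. They are the perilipin coat genes Plin2, Plin3, Plin4 and Plin5, the droplet fusion genes Cidec and Cideb, the budding gene Fitm1, the triglyceride lipase gene Pnpla2, its inhibitor gene G0s2 and the fatty acid transporter gene Cd36. They were taken by symbol from a liver expression table of 27020 genes, each symbol matched 1 row, and all 10 passed the filter for testing. The libraries came from 4 groups of mice aged 8 weeks. KO_star mice (n = 6) are Khdc3-null, were bred from heterozygous parents and have both WT and KO grandparents. WT_star mice (n = 4) are genetically wild type with parents and grandparents of the same kinds. KO mice (n = 3) are Khdc3-null with only Khdc3-null ancestors, and WT mice (n = 4) are wild type with only wild-type ancestors. The design text calls the KO_star and WT_star mice females. The sex of the KO and WT mice is not stated, so mixed and pure descent may also differ in sex. The labels state no strain, form of the null allele, litter or batch. Mice of 1 group may be littermates, and p-values then measure only the spread between these samples.

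Newly made triglyceride is packed between the leaflets of the endoplasmic reticulum membrane, and FIT proteins help the droplet to bud into the cytosol. Perilipins then cover the surface and limit the access of lipases, while CIDE proteins pass lipid from droplet to droplet. Adipose triglyceride lipase, the product of Pnpla2, cuts the first fatty acid from triglyceride, and the small protein G0S2 binds and inhibits it. CD36 carries long-chain fatty acids across the plasma membrane. Several of these genes are targets of the fatty acid sensing PPAR receptors in mouse liver.

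Reads in genes numbered 17.62 to 26.7 M per library, and values are the deposited normalized counts, which are reads divided by 1 size factor per library. Khdc3 itself, an oocyte gene, had no more than 4 reads in any library, so it does not check the genotype labels in this organ. The labels name the cell type as hepatocyte. Hepatocyte markers were high, and albumin took 7.76 to 10.47% of the reads in KO_star, 7.12 to 8.27% in WT_star, 6.36 to 7.05% in KO and 9.11 to 10.25% in WT. RNA of other liver cells was present too, and 8 Kupffer cell and macrophage markers summed to 4481 to 9377. Of the 6 adipocyte markers found, Plin1, Adipoq, Lep, Retn and Cfd had at most 5.067, 4.235, 1.895, 3.176 and 14.19 in any library. The other one, the adrenergic receptor gene Adrb3, was at 11.54 to 66.7. Library KO_star 16 held RNA of striated muscle, with a summed level of 1260 over 7 muscle markers, against 3.285 to 18.64 in the other 16 libraries. In bulk liver, fewer cells of a type and less RNA per cell cannot be told apart.

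The promoters of Plin2, Cd36 and G0s2 are shown because these are the 3 members whose RNA differed between KO and WT by the test. The sequences run from 250 bases before to 50 bases after the transcription start in RefSeq's annotation of GRCm38.p6, all on the minus strand and written in the gene's own direction. The windows are chr4:86670010-86670309 for Plin2, chr5:17835847-17836146 for Cd36 and chr1:193273139-193273438 for G0s2. The Cd36 window lies inside the gene's GENCODE M21 span (17781690 to 17888801), whose outer start on the minus strand is at 17888801. Which Cd36 start these livers used was not tested. Capitals mark the nuclear receptor half-site AGGTCA, the E-box CACGTG and the TATA box TATAAA on either strand.
Plin2: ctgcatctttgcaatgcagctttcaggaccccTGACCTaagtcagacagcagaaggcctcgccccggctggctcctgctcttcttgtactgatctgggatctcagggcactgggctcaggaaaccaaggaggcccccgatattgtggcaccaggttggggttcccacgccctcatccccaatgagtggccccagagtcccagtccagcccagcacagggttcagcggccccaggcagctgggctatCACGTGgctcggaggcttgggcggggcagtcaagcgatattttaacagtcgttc
Cd36: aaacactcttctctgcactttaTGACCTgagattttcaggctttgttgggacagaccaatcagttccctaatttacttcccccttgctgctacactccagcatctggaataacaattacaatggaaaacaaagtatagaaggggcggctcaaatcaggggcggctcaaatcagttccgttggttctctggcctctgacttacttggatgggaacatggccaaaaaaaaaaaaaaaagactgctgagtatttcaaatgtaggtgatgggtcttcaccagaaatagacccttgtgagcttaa
G0s2: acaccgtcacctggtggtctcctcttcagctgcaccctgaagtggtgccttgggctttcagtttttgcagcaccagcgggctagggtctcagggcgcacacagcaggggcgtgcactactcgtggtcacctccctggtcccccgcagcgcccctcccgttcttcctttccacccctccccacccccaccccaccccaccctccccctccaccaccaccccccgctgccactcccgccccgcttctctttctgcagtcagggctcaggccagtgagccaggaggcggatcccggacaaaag
Plin2 has a half-site, read as TGACCT, 218 bases before the start and an E-box beginning 4 bases before it. Cd36 has a half-site, read as TGACCT, that begins 228 bases before the start, and G0s2 has none of these words. Among the other members, Plin5 had a half-site in both of its 2 windows. Cideb had the letters TATAAA, beginning 172 bases before the start, while Plin3, Plin4, Cidec, Fitm1 and Pnpla2 had none of these words. Of the 32851 promoter windows in the table, 16.3% held the half-site, 7.15% the E-box and 13.6% the TATA box. A direct repeat of AGGTCA with any 1 base between the copies, the full PPAR element, stood in 0.0396% of all windows and in none of the members' windows. A match of letters is a description of the window and shows no binding.

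Per kb of exon, where genes can be compared with each other, Cideb and Plin2 stood highest and Cidec lowest. Cideb had 2052 ± 188.2 normalized counts per kb in KO_star (SD, n = 6), 2073 ± 43.09 in WT_star (n = 4), 2095 ± 159.6 in KO (n = 3) and 2028 ± 140.3 in WT (n = 4). Plin2, the perilipin that covers droplets in most cell types, had 1121 ± 223.4, 1204 ± 153.4, 1623 ± 157.8 and 1008 ± 70.41 per kb in KO_star, WT_star, KO and WT. At the other end, Plin4 had 13.36 ± 6.005 in KO_star, 17.27 ± 3.689 in WT_star, 24.62 ± 6.126 in KO and 26.97 ± 9.71 in WT. Cidec, known as a droplet fusion gene of fat cells and of fatty liver, had 7.669 ± 5.275, 8.118 ± 2.426, 13.48 ± 4.34 and 12.17 ± 2.568 per kb in KO_star, WT_star, KO and WT. G0s2 came next after Cideb and Plin2 in KO_star (499.8 ± 201.6 per kb), WT_star (999.2 ± 627.3) and KO (1393 ± 261.5). In WT it had 417.2 ± 187.2 per kb, below Pnpla2. The remaining members averaged between 78.03 per kb for Fitm1 in WT and 459 per kb for Pnpla2 in WT.

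**Figure D1:**
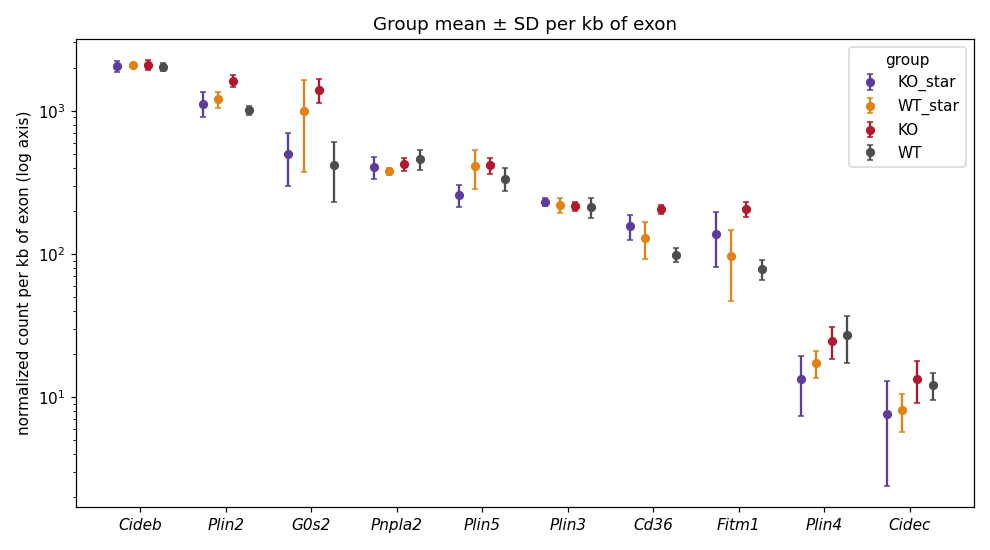
Group means ± SD of the deposited normalized count per kb of exon for the 10 members (log axis, genes in falling order of the mean over groups, n = 6 KO_star, 4 WT_star, 3 KO and 4 WT). Cideb is at 2028 to 2095 per kb in the 4 groups, G0s2 and Cd36 separate KO from WT, and Plin4 and Cidec are the lowest members.

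KO against WT compares Khdc3-null livers of Khdc3-null descent with wild-type livers of wild-type descent. Cd36, Plin2 and G0s2 rose in KO, by 2.08-fold, 1.61-fold and 3.54-fold, and no member fell. These 3 of 10 members compare with 1.32% of all 16157 genes tested that were called higher, and 2.89% were called in either direction. Over all genes, 213 were higher and 254 lower, or 338 and 188 when libraries were scaled to equal totals. For 4 of the 10 members every KO library was above every WT library, as for 8.86% of all genes, and groups were separate in either direction for 18.4% of all genes. An unadjusted p under 0.05 was reached by 4 members and 16.7% of all genes. The median log2 fold change was 0.22 over the members and 0.01 over all genes tested.

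Cd36 had 788.0, 725.4 and 693.7 normalized counts in the KO libraries 30, 31 and 32. In the WT libraries 25, 26, 27 and 28 it had 376.2, 384.4, 356.1 and 298.9. Every KO library was above every WT library, and the log2 fold change was 1.06 (SE 0.18, adjusted p = 0.0049 by limma). The Cd36 difference passed the threshold without each library in turn, with an adjusted p of up to 0.03. The transporter is also made by macrophages and endothelial cells, and the summed Kupffer and macrophage markers were at 4633 to 5366 in KO and 4699 to 5665 in WT, so their ranges overlapped. Singly, Marco (15.09 to 35.87 in KO, 66.53 to 88.04 in WT) and Timd4 (113.2 to 133.2, 150.3 to 202.1) were lower in KO without overlap. Adgre1, Clec4f, Cd5l, Vsig4, Csf1r and Cd68 overlapped. Endothelial markers summed to 10288 to 11260 in KO and 10276 to 11649 in WT. Of them, Lyve1 was lower (100.3 to 149.1, 158.1 to 233.9) and Pecam1 higher in KO (558.5 to 651.4, 509.1 to 532.2), and the others overlapped. No marker of these 2 lists was called by limma. The sum of the 8 stellate cell markers was lower in KO without overlap, at 10715 to 11278 against 11577 to 12300 in WT. Singly, Reln, Des and Pdgfrb were lower in KO without overlap, and Lrat, Dcn, Hgf, Colec11 and Ecm1 overlapped. Pdgfrb was the 1 stellate marker called, lower in KO (log2 fold change -0.56, adjusted p = 0.049 by limma). The 6 adipocyte markers summed to 12.43 to 29.14 in KO and 52.51 to 78.02 in WT, and most of that was Adrb3, at 11.54 to 24.66 in KO and 47.64 to 66.7 in WT (log2 fold change -1.48, adjusted p = 0.0032). The 8 hepatocyte markers summed to 1668917 to 1909647 in KO and 2501892 to 2608317 in WT, mostly Alb. Of these 8, Alb (-0.59, adjusted p = 0.012) and Cps1 (-0.53, adjusted p = 0.018) were called lower in KO, Tat was lower without overlap, and Apoa1, Ttr, Serpina1c, Hnf4a and Fgb overlapped. The part of these shifts in the members' levels was not tested.

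Plin2 had 5754, 6223 and 5119 in the KO libraries and 3611, 3824, 3492 and 3231 in the WT libraries. All KO libraries were higher, and the fitted log2 difference was 0.68 (SE 0.15, adjusted p = 0.018). The call was lost without WT 28, KO 30 or KO 31, with adjusted p of 0.059, 0.074 and 0.1 and log2 fold changes of 0.64, 0.68 and 0.62. G0s2, the lipase inhibitor gene, had 1412, 965.1 and 1263 in KO and 395.7, 580.7, 252.3 and 225 in WT. Its groups did not overlap either, and the log2 fold change was 1.82 (SE 0.45, adjusted p = 0.046). Its call was close to the threshold and was lost without any 1 of 11 libraries (WT 25, 27 and 28, KO 30, 31 and 32, WT_star 21 and 33, KO_star 12, 17 and 29), with adjusted p of up to 0.15 and log2 fold changes of 1.63 to 2.08 over all left-out libraries. It was also lost with edgeR (adjusted p = 0.061) and without a filter on low values (0.082). G0s2 lies on the other strand within the span of Lamb3, a laminin chain gene, with 0 shared exon bases. Lamb3 had a mean of 129.7 in KO and 79.2 in WT.

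Fitm1, a budding gene best known from skeletal muscle, was the fourth member whose libraries did not overlap. It had 221.9, 199.8 and 174.2 in KO and 85.37, 59.14, 76.48 and 82.08 in WT. The log2 difference of 1.39 (SE 0.40) missed the threshold (adjusted p = 0.073). Fitted on the KO and WT libraries alone, its adjusted p was 0.0011, and by DESeq2 it was 0.0096. It was 0.063 by edgeR, 0.079 with quantile normalization, 0.11 without a filter, and up to 0.22 with a library left out. Muscle markers summed to 7.872 to 18.64 in KO and 3.285 to 9.782 in WT, and the muscle actin gene Acta1 had at most 1.121 in these libraries. Fitm1 shares 109 exon bases with the antisense gene Gm15932, which had a mean of 2.6 in KO and 1.4 in WT.

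**Figure D2:**
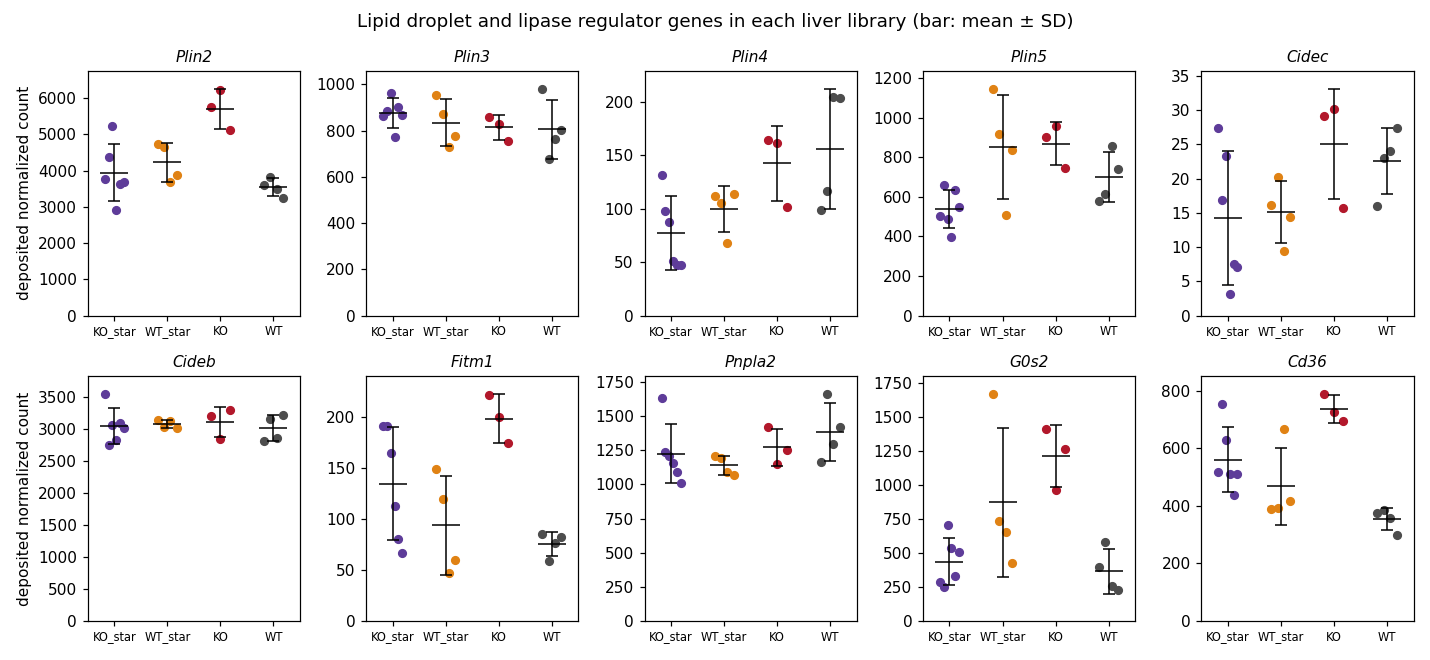
Deposited normalized count of each member in every library (points), with the group mean ± SD, for KO_star (n = 6), WT_star (n = 4), KO (n = 3) and WT (n = 4). Each panel starts at 0. For Cd36, Plin2, G0s2 and Fitm1 the 3 KO points lie above all 4 WT points, and within KO_star the points of Plin4, Cidec and Fitm1 spread widely.

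The other 6 members did not pass the test between KO and WT. Plin5, the perilipin of oxidative tissues that ties droplets to mitochondria, had 904.6, 957.1 and 746.9 in KO and 580.7, 616.8, 859.5 and 738.7 in WT, and the groups overlapped (log2 fold change 0.32, adjusted p = 0.52). Pnpla2, the lipase that G0S2 inhibits, had 1418, 1150 and 1255 in KO and 1162, 1662, 1299 and 1421 in WT. Its log2 fold change of -0.11 had a 95% interval of -0.41 to 0.18. The intervals were narrow for Plin3 (-0.22 to 0.27), a coat gene of small new droplets, and for Cideb (-0.14 to 0.23), which is needed for the lipid loading of very low density lipoprotein. They were wide for Plin4 (-0.86 to 0.68) and Cidec (-0.99 to 1.21). Cidec rests on 16 to 34 reads per library in KO and 18 to 28 in WT. Cideb shares 1136 exon bases with Nop9 on the other strand. The libraries were stranded, but no strand setting of the counting is stated. Whether the reads there were assigned to the right gene is therefore unknown. Nop9 had a mean of 406.9 in KO and 363 in WT, against 3118 and 3018 for Cideb.

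Another 68 tested genes came from 5 lists of droplet assembly, lipolysis, fatty acid uptake, transcriptional control and triglyceride export. Of these 68, limma called 0 higher and 2 lower in KO, where 2.89% of all genes were called in either direction. Vps13a, a lipid transfer protein gene, had a mean of 830.9 ± 50.75 in KO and 1364 ± 237.7 in WT (log2 fold change -0.70, adjusted p = 0.029). Tm6sf2, whose protein is needed for the lipid loading of secreted lipoproteins, had 863.9 ± 50.4 in KO and 1154 ± 102.4 in WT (-0.41, adjusted p = 0.016). The median log2 fold change was 0.09 over 16 droplet coat and assembly genes, -0.11 over 12 lipolysis and lipophagy genes, -0.03 over 14 uptake and activation genes, -0.03 over 18 transcriptional regulators and 0.03 over 8 export genes. Some genes that missed the threshold are given for their role, chosen after their values were seen. Pparg, the receptor gene whose product drives droplet genes in fat cells, had 184.2 ± 21.21 in KO and 84.81 ± 25.53 in WT (log2 fold change 1.15, SE 0.41, adjusted p = 0.15). Ppara, the main PPAR gene of hepatocytes, had 3691 ± 567.2 in KO and 4124 ± 1578 in WT (-0.10, adjusted p = 0.86). Abhd5, which encodes the coactivator of the Pnpla2 lipase, had 600.9 ± 40.5 and 771 ± 178.4 in KO and WT (-0.33, adjusted p = 0.29), and Mgll, the monoglyceride lipase gene, had 7799 ± 777.7 and 5658 ± 562.1 (0.46, adjusted p = 0.34).

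WT_star against WT asks whether genetically wild-type mice with KO grandparents differ from WT mice, and KO_star against WT does so for Khdc3-null mice of the same mixed descent. No member was called in either comparison by limma, against 0.904% and 0.706% of all genes. At an unadjusted p under 0.05 there were 3 of 10 members in WT_star and 3 in KO_star, where 14.9% and 12.1% of all genes passed. DESeq2 called 0 and 2 members, and edgeR 0 in both. Over all 16157 genes, DESeq2 called 602 and 341, and edgeR 109 and 112. Cd36 was the 1 member whose libraries did not overlap with WT in either comparison, as they did not for 8.95% and 2.89% of all genes. The comparisons share the WT libraries with each other and with KO against WT.

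Cd36 ranged from 436.7 to 755.1 in the 6 KO_star libraries with a median of 514.4, and had 388.8, 393.3, 668.1 and 417.7 in the WT_star libraries 20, 21, 33 and 34. All 10 of these values lay above the highest WT value of 384.4. In KO_star the log2 fold change against WT was 0.64 (SE 0.16, adjusted p = 0.068), and by DESeq2 0.66 with an adjusted p of 0.0094. In WT_star it was 0.37 (SE 0.17, adjusted p = 0.32). In all 4 groups the library with the highest Cd36 value was also the highest in Kupffer and macrophage markers: KO_star 13 (Cd36 755.1, markers summed to 9023), WT_star 33 (668.1 and 9377), KO 30 (788.0 and 5366) and WT 26 (384.4 and 5665). Below the top library the orders did not always match. KO_star 14 had more Cd36 (628.9) than KO_star 12 (516.9) and KO_star 16 (511.2). Its markers summed to 5422, against 6829 and 6499 in those libraries. The part of those cells in the Cd36 level was not tested. Without WT_star 33 the adjusted p of KO_star against WT was 0.018 at the same log2 fold change of 0.64, and the WT_star value was 0.18. The adjusted p of KO_star against WT reached 0.23 over all left-out libraries, and by edgeR it was 0.072.

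G0s2 had 1666, 736.4, 651.6 and 427 in the WT_star libraries 20, 21, 33 and 34, against 395.7, 580.7, 252.3 and 225 in WT. The groups overlapped, WT_star 20 was the highest library, and the log2 fold change was 1.18 (SE 0.42, adjusted p = 0.2), or 0.80 without WT_star 20. In KO_star it ranged from 251.3 to 703 with a median of 416.8, within and around the WT values (log2 fold change 0.27, 95% interval -0.56 to 1.09). Plin2 was at 2924 to 5233 in KO_star with a median of 3734, and at 4733, 4647, 3673 and 3865 in WT_star. Their log2 fold changes against WT were 0.13 (SE 0.13, adjusted p = 0.71) and 0.25 (SE 0.14, adjusted p = 0.41). Plin4, a perilipin of fat and muscle, ran from 47.3 to 131.8 in KO_star (median 69.3) and was at 112, 105.3, 68.22 and 113.4 in WT_star, against 98.71, 116.6, 204.3 and 203.7 in WT. It overlapped with WT in both, with log2 fold changes of -1.05 (SE 0.31, adjusted p = 0.15) in KO_star and -0.59 (SE 0.34, adjusted p = 0.43) in WT_star, and DESeq2 gave -1.01 with an adjusted p of 0.043 in KO_star. Among the 68 other pathway genes, Vps13a was lower in WT_star (789.9 ± 80.19, n = 4) than in WT (1364 ± 237.7, n = 4). Its log2 fold change was -0.78 with an adjusted p of 0.023 by limma. It was the 1 called in WT_star, and none was called in KO_star, where 0.904% and 0.706% of all genes were.

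KO_star against KO compares Khdc3-null mice of mixed and of pure descent. No member was called by limma, against 1.46% of all genes, while 6 of 10 had an unadjusted p under 0.05 (17.7% of all genes). DESeq2 called 3 members lower, Plin2, G0s2 and Plin5, and edgeR 0. Over all 16157 genes, DESeq2 called 814, of them 350 lower, and edgeR called 208. The log2 fold change was below 0 for 9 of the 10 members, with a median of -0.61, against a median of 0 over all genes. Plin5 and G0s2 were the 2 members whose libraries did not overlap, both lower in KO_star, as 5.82% of all genes were in that direction and 11.1% in either.

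Plin5 was at 397.8 to 657.9 in KO_star with a median of 528.4, and at 904.6, 957.1 and 746.9 in KO, which gave a log2 difference of -0.70 (SE 0.21, adjusted p = 0.1). G0s2 was at 251.3 to 703 in KO_star and at 1412, 965.1 and 1263 in KO (-1.56, SE 0.42, adjusted p = 0.078). Plin2 was at 2924 to 5233 in KO_star and at 5754, 6223 and 5119 in KO, so that the highest KO_star library was above the lowest KO library. Its log2 fold change was -0.55 (SE 0.14, adjusted p = 0.054), just short of the threshold, and it passed when libraries were scaled to equal totals (-0.60, adjusted p = 0.039), by quantile normalization (-0.53, 0.043), and without KO_star 14 (-0.64, 0.015), KO_star 13 (-0.59, 0.048) or WT_star 33 (-0.55, 0.041). Plin2 did not pass by edgeR (adjusted p = 0.059) or fitted on only the groups compared (0.091), and reached 0.23 with a library left out. Without WT_star 33, Plin5 passed (adjusted p = 0.034), and without WT_star 20 G0s2 did (0.049). Over all left-out libraries, the adjusted p reached 0.32 for Plin5 and 0.26 for G0s2. Of the 68 other pathway genes, 1 was called by limma, against 1.46% of all genes. It was Aadac, which encodes an esterase of the endoplasmic reticulum. Aadac was higher in KO_star at 4418 ± 304.6 (n = 6) than in KO at 3478 ± 30.89 (n = 3), with a log2 fold change of 0.34 and an adjusted p of 0.041. In KO_star 16, the library with muscle RNA, the muscle-expressed members Plin4, Plin5 and Fitm1 had 50.72, 397.8 and 112.5. Over all KO_star libraries they ran from 47.3 to 131.8, from 397.8 to 657.9 and from 66.22 to 191.6. The part of muscle RNA in these levels was not tested.

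WT_star against KO sets mixed against pure descent across genotypes. No member was called by limma, where 1.40% of all genes were, and edgeR called 0 and DESeq2 1, Cd36. Over all 16157 genes, edgeR called 200 and DESeq2 526. The libraries did not overlap for Plin2, Fitm1 and Cd36, all lower in WT_star, against 8.00% of all genes in that direction, and 3 members had an unadjusted p under 0.05 (13.8% of all genes). The log2 difference of Cd36 was -0.69 (SE 0.18, adjusted p = 0.072), which became -0.88 with an adjusted p of 0.014 without WT_star 33. Over all left-out libraries the adjusted p of Cd36 reached 0.23. Fitm1 had 148.7, 119.8, 47.05 and 59.82 in the WT_star libraries 20, 21, 33 and 34, against 221.9, 199.8 and 174.2 in KO (-1.22, SE 0.40, adjusted p = 0.16).

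KO_star against WT_star is the genotype comparison within mixed descent. Limma called 0 genes of any kind here (0% of 16157), edgeR also 0 and DESeq2 62, none of them a member, and 7.33% of all genes and 2 of 10 members had an unadjusted p under 0.05. Those 2 were Plin5, at a log2 difference of -0.62 (SE 0.19, adjusted p = 0.43), and G0s2, with -0.91 (SE 0.38, adjusted p = 0.65). The libraries of the groups overlapped for all 10 members, while 1.38% of all genes did not overlap. The interval was narrow for Cideb, from -0.17 to 0.13, and for Plin3, from -0.13 to 0.28.

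**Figure D3:**
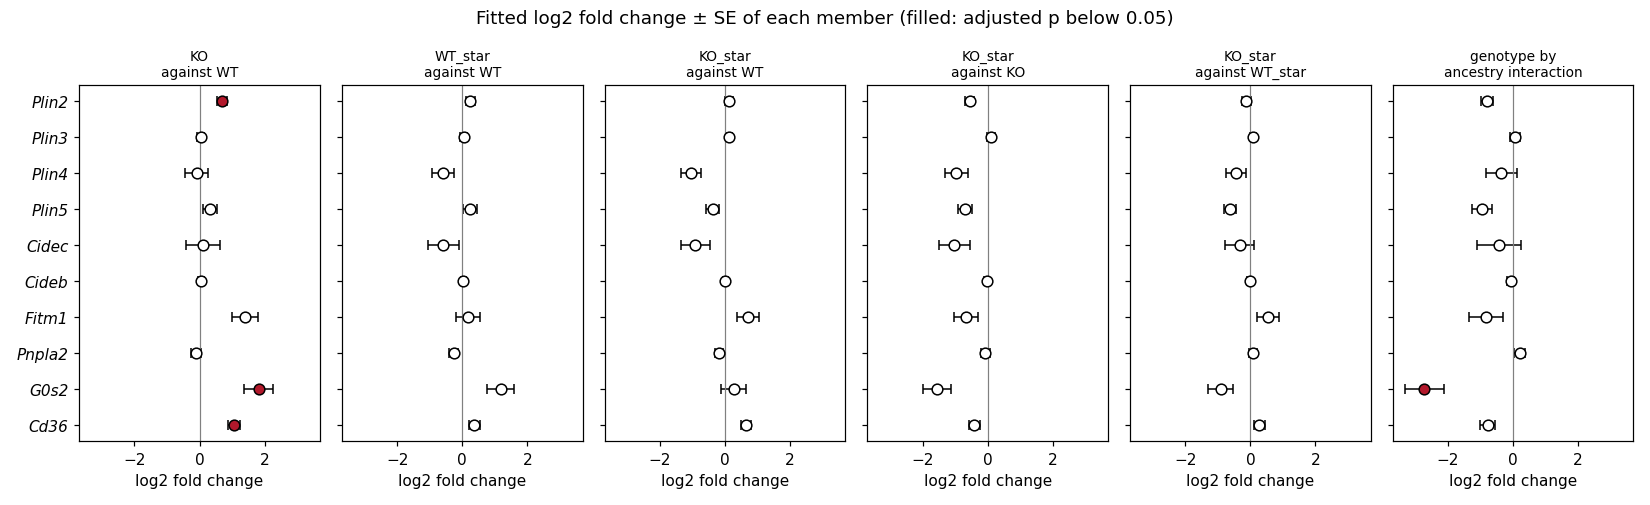
Horizontal axis: fitted log2 fold change ± SE, from log2(value + 1), of each member in 5 comparisons and in the interaction of genotype and ancestry. Filled points have an adjusted p below 0.05: Plin2, G0s2 and Cd36 in KO against WT, and G0s2 in the interaction.

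The interaction asks whether the difference between Khdc3-null and wild type is itself different in mixed and pure descent, as KO_star minus WT_star less KO minus WT. G0s2 was the 1 member called, with an interaction of -2.73 on the log2 scale (SE 0.60, 95% interval -4.01 to -1.46, adjusted p = 0.04), against 0.538% of all genes in that direction and 1.29% in either. It is made of a log2 fold change of -0.91 in mixed descent and 1.82 in pure descent. The call was lost without any 1 of 10 libraries (WT 25, 27 and 28, KO 30, 31 and 32, WT_star 20 and 21, KO_star 12 and 17), with adjusted p of up to 0.11 and a range of -3.01 to -2.36 over all left-out libraries, and without a filter (adjusted p = 0.068). Plin2 had an interaction of -0.80 (SE 0.19, adjusted p = 0.051). It passed by DESeq2 (-0.79, adjusted p = 0.0084), and by limma with equal totals (-0.89, 0.032). It also passed without WT_star 33 (-0.87, 0.029), KO_star 13 (-0.84, 0.046) or KO_star 14 (-0.89, 0.015). By edgeR it did not (0.053), and over all left-out libraries its adjusted p reached 0.14. Plin5 had -0.95 (SE 0.30, adjusted p = 0.13) and passed by DESeq2 (-0.98, adjusted p = 0.031) and without WT_star 33 (-1.17, adjusted p = 0.016). Over all left-out libraries the adjusted p of Plin5 reached 0.26. Cd36 had -0.78 (SE 0.24, adjusted p = 0.12), and 4 of the 10 members had an unadjusted p under 0.05 (15.9% of all genes).

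Ordered by group mean, KO stood highest for 7 of the 10 members, among them Cideb, whose means were nearly equal. The share of all genes with their highest mean in KO was not determined, so this count is a description only. The order was KO, WT_star, KO_star, WT for Plin2, Cideb and G0s2, and KO, KO_star, WT_star, WT for Cd36 and Fitm1. The group means spanned a factor of 3.34 for G0s2, 2.62 for Fitm1, 2.08 for Cd36, 2.02 for Plin4, 1.76 for Cidec, 1.61 for Plin2 and Plin5, 1.22 for Pnpla2, 1.09 for Plin3 and 1.03 for Cideb. Neighbours in these orders did not pass the test by limma in any case. The spread within groups also differed between members. In KO_star, the coefficient of variation was 68.8% for Cidec, 44.9% for Plin4, 41.3% for Fitm1 and 40.3% for G0s2, but 9.2% for Cideb and 7.2% for Plin3.

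Within groups, members were compared by their deviations from the group mean of log2(value + 1) over all 17 libraries, with permutations within groups. Of 45 pairs, 1 passed after adjustment: Plin4 and Cidec deviated together with a Pearson r of 0.84 (permutation p = 0.00064, adjusted p = 0.029) and a Spearman rho of 0.80 (permutation p = 0.0015, adjusted p = 0.067). Without the 2 libraries farthest from the Plin4 median, r was 0.83, and over the 6 KO_star libraries alone it was 0.89. In KO_star 12, 13 and 14, Cidec had 27.36, 16.9 and 23.29 and Plin4 131.8, 98.21 and 87.88. In KO_star 16, 17 and 29, Cidec had 3.17, 7.579 and 7.095, from 4 to 8 reads, and Plin4 50.72, 47.37 and 47.3. Fitm1 had 191.6, 191.1 and 165.2 in KO_star 12, 13 and 14, and 112.5, 80.52 and 66.22 in KO_star 16, 17 and 29. The numbers are those of the sample titles, which do not say what they stand for. Fitm1 and Plin4 had an r of 0.69 (permutation p = 0.0058, adjusted p = 0.13; rho 0.60, permutation p = 0.02; r without the 2 farthest libraries 0.72). Among the called members, G0s2 and Cd36 had an r of -0.04 (permutation p = 0.9, adjusted p = 0.93; rho 0.11, permutation p = 0.71), Plin2 and G0s2 0.32 (permutation p = 0.27, adjusted p = 0.58; rho 0.23, permutation p = 0.44) and Plin2 and Cd36 0.20 (permutation p = 0.52, adjusted p = 0.82; rho 0.28, permutation p = 0.35).

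**Figure D4:**
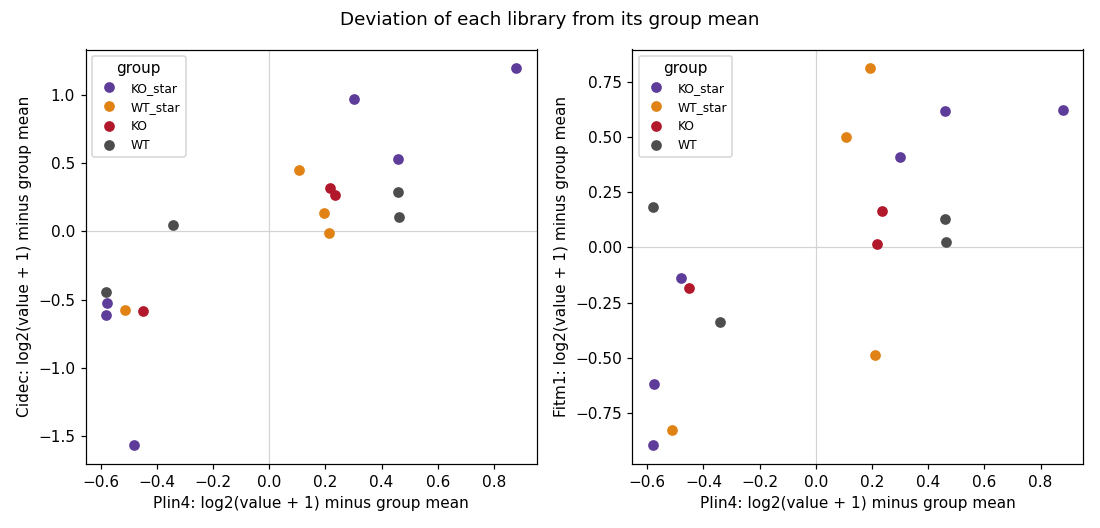
Deviation of each of the 17 libraries from its group mean on the log2(value + 1) scale, for Plin4 (horizontal) against Cidec (left) and against Fitm1 (right), coloured by group. Libraries high in Plin4 for their group are mostly high in Cidec, with r = 0.84, and less closely so in Fitm1, with r = 0.69.

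The genes most alike to each member by the same within-group Pearson r, out of 9606 genes with a symbol and a mean of at least 100, are given as a description over 17 libraries. For Plin2 they were Spryd7 (r = 0.86), Chpt1 (0.85) and Guk1 (0.85), and for Cd36 Tapbp (0.90), Mvp (0.89) and Stard9 (0.87). G0s2 was followed most closely by Srbd1 (0.84), Slc12a7 (0.83) and Rassf7 (0.83). For Fitm1 they were Acsf2 (0.90), Ephx1 (0.90) and Acads (0.89), and for Pnpla2 Susd6, Pptc7 and Bckdha (0.91 each). Plin4 was closest to Max (0.90), Smg8 (0.88) and Ddx28 (0.87), Cidec to Traf6 (0.87), Vps18 (0.86) and Plin4 (0.84), and Plin5 to Ccdc25, Apba3 and Nploc4 (0.93 each). Plin3 was closest to Lta4h (0.88), Acad9 (0.82) and S100a10 (0.81), and Cideb to Apeh, Osbpl1a and Rhoa (0.85 each).

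Of the perilipin genes, 3 are neighbours on chromosome 17 of GRCm38. Plin4 (56100591 to 56109803) and Plin5 (56111601 to 56117596) lie 1797 bases apart on the minus strand, and Plin3 (56277476 to 56292873) follows 159.9 kb beyond Plin5. The next gene after Plin5, the acute phase gene Lrg1, had a mean of 6233.2 in KO and 4308.6 in WT (log2 fold change 0.54, adjusted p = 0.5), and Hdgfl2, which shares 17 exon bases with Plin4 on the other strand, had 640.4 in KO and 618 in WT. Fitm1 (55575617 to 55576954) and Cideb (55754050 to 55758458) lie on chromosome 14 with 177.1 kb between them. Next to Fitm1, the proteasome activator gene Psme1 had means of 1298 in KO and 1354.9 in WT. The called members lie on 3 chromosomes: Plin2 on chromosome 4 (86648386 to 86670060), Cd36 on chromosome 5 (17781690 to 17888801) and G0s2 on chromosome 1 (193272161 to 193273217). Their tested neighbours were not called in KO against WT: Haus6 before Plin2 had a log2 fold change of -0.35 (adjusted p = 0.35), Dennd4c after it -0.11 (adjusted p = 0.48), Lamb3 around G0s2 0.71 (adjusted p = 0.12), Hsd11b1 before it -0.31 (adjusted p = 0.17) and Sema3c before Cd36 0.04 (adjusted p = 0.97). Camk1g after G0s2 and Gnat3 after Cd36 were not tested. Neighbouring and overlapping genes lie outside the rule for named genes, and those named were chosen after their values were seen. Cidec is on chromosome 6 (113424634 to 113435760) and Pnpla2 on chromosome 7 (141455198 to 141460743).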

How the data were processed

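Total RNA of 17 livers was sequenced from stranded, ribosomal RNA depleted libraries (per the labels' protocols). The deposited table gives 27020 genes a signal in each library, a normalized count that equals gene reads divided by 1 size factor. HISAT2, cutadapt, DESeq2 and GRCm38 are named in the submitters' processing notes; no counting tool, annotation or strand setting is named there. Multiplied by that factor, 100.0% of the values gave whole numbers of reads to within 0.001, and 1 read was worth 0.792 to 1.182. A floor of 3 reads is 2.38 to 3.55 in deposited values, and such floors cover counting error only. All 30 pairs of libraries of a group differed by more than sampling noise (chi-square per degree of freedom 8.53 to 101.68), so each was counted as 1 sample.

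The 16157 genes that reached a value of 10 in 3 or more libraries entered limma 3.58.1 (R 4.3.3) on the scale log2(value + 1), with a mean per group and a trended, robust variance. Two-sided p-values were adjusted by Benjamini-Hochberg over all these genes, and the threshold was 0.05. Fold changes are on that log2 scale, on which changes of low genes come out too small, and intervals are 95% intervals of the fit. edgeR 4.0.16 and DESeq2 1.42.0 on the recovered reads were alternatives. The test was tested on simulated data. Correlations used 100000 permutations within groups. All 10 members matched GENCODE M21 (exon lengths and positions), 7 with the identifier's version, and all 10 had promoter windows from RefSeq. Every member is named, every pathway gene past the threshold, and the 3 genes most alike to each member. The members, lists and motifs were chosen with earlier results of these data known.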

Additional observations from a re-analysis of the deposited data

Results flagged for a closer look

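Cd36 in WT_star 33 was at 668.1, against 388.8 to 417.7 in the other 3 WT_star libraries, a gap that is 0.897 of the group's range (critical value 0.829 for 4 samples). The same library had the highest summed level of Kupffer and macrophage markers of all libraries (9377), and the part of those cells in the Cd36 value was not tested. Pnpla2 in KO_star 12 was at 1637, against 1012 to 1239 in the other 5 KO_star libraries, a gap of 0.637 of the range (critical value 0.625 for 6 samples). Of 30 combinations of member and group examined, 2 were beyond the critical value, and chance flags about 5% of groups.

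For G0s2 the difference between Khdc3-null and wild type itself differed between mixed and pure descent, with an interaction of -2.73 on the log2 scale (SE 0.60, adjusted p = 0.04). The call was lost without any 1 of 10 libraries (adjusted p of up to 0.11) and without a filter on low values (0.068).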

How the results depend on the processing

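No paired analysis was possible because no replicate number of the titles occurs in more than 1 group. With DESeq2, the number of genes called was 865 in KO against WT (467 by limma), 602 in WT_star against WT (146), 341 in KO_star against WT (114), 62 in KO_star against WT_star (0), 814 in KO_star against KO (236), 526 in WT_star against KO (226) and 695 in the interaction (209). Fitted on only the groups compared, it was 754 in KO against WT, 96 in WT_star against WT and 68 in KO_star against WT, and with equal library totals it was 363 in KO_star against KO. With each library left out in turn, the ranges were 150 to 617, 33 to 184, 51 to 140, 0 to 20, 37 to 364, 34 to 265 and 74 to 498, in the order of the 7 comparisons above. Members called numbered 1 to 3 in KO against WT, 0 to 1 in KO_star against WT, 0 to 2 in KO_star against KO, 0 to 1 in WT_star against KO and 0 to 3 in the interaction when a library was left out, and 0 in WT_star against WT and KO_star against WT_star. DESeq2 called 2 members in KO_star against WT, 3 in KO_star against KO, 1 in WT_star against KO and 3 in the interaction. A filter of 50, quantile normalization and equal library totals each called 1 member in KO_star against KO and 2 in the interaction, and only the groups compared called 1 in KO_star against KO. The interaction of Plin3 was -0.04 with equal library totals and 0.05 to 0.06 with all libraries under the other settings. Small log2 fold changes crossed 0 with a library left out: in KO against WT, Plin3 (-0.05 to 0.13), Plin4 (-0.28 to 0.14) and Cidec (-0.05 to 0.40); in WT_star against WT, Plin3 (-0.02 to 0.15) and Fitm1 (-0.11 to 0.44); Cideb in KO_star against WT (-0.03 to 0.05), WT_star (-0.06 to 0.01) and KO (-0.10 to 0.01); Pnpla2 in KO_star against KO (-0.16 to 0.01); in WT_star against KO, Plin3 (-0.04 to 0.09), Plin5 (-0.24 to 0.15) and Cideb (-0.08 to 0.03); and Plin3 in the interaction (-0.05 to 0.13). The cause of these differences was not tested. The low read counts limit Cidec most.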
